A study of Saccharomyces cerevisiae with 6 samples.

Results

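The deeply occupied nucleosomes of wildtype budding yeast are 2899 of the 52167 nucleosomes that the authors called in the wildtype library at 0 h, or 5.56% of that list. They were chosen by their read count and by their sharpness in that library: at least 130 MNase-seq read centres lay within 50 bp of the called centre, and the s.d. of the read centres around the centre (the spread, which the study calls fuzziness) was 18 bp or more and under 42 bp. The wildtype library at 0 h therefore fixed their height in that library, and values from it are given as a description only. The other 5 libraries had no part in the choice.

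The study followed chromatin as histone H3 ran short. The H3 shutoff strain (DCB200.1) lacks HHT1, one of the genes for histone H3, and carries the other H3 gene, HHT2, behind the GAL1 promoter, which is active in galactose and repressed in dextrose. Wildtype (YEF473A) keeps both H3 genes under their own promoters. Both strains were grown in galactose and moved to dextrose, and cells were taken at once (0 h) and after 3 h. The H3 shutoff strain gave 2 replicates at each time and wildtype gave 1, and each replicate was 1 culture sampled at both times. The change of sugar is shared by both strains. In dextrose the H3 shutoff cells arrest with large buds, whereas wildtype cells keep dividing, and the part of this difference in the counts was not tested. These 6 libraries are the single-end part of the study, and its paired-end libraries were not analysed here. With 1 wildtype pair among them, the spread between wildtype cultures was not measured.

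A nucleosome is a stretch of DNA wrapped around a core of histones, with H3 and H4 at its centre. Micrococcal nuclease (MNase) digests the linker DNA between nucleosomes, and the centres of the protected fragments mark the midpoint, or dyad, of each nucleosome. Many read centres in a narrow window mean that a large part of the sequenced fragments came from one site and that they were centred alike. A nucleosome can lose such counts in more than one way: fewer cells may carry it, or its fragments may lie over a wider range of positions. Counts within 50 bp and within 150 bp of one fixed centre were therefore set side by side. Digestion may differ too: the study found the chromatin more sensitive to MNase after H3 depletion and adjusted the amount of MNase. Its part in the counts was not tested here.

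Every library held 5000001 reads, drawn by the authors, so each count is relative to the other nucleosomes of the same library and not an absolute occupancy. A loss spread evenly over the genome would leave these counts as they were. Reads of H3 shutoff had been extended to 170 and 172 bp before the shift and to 158 and 165 bp after 3 h, and those of wildtype to 174 bp at either time. Of the H3 shutoff reads, 51.9% and 52.7% lay on distinct intervals at 0 h, and this share was 59.5% and 64.5% at 3 h, whereas wildtype had 46.2% and 47.8%. Read length and the share of distinct intervals thus moved with time in H3 shutoff and hardly in wildtype, and their part in the results was not tested. There are no molecular identifiers, and the intervals given for shares of reads cover counting error only. Coordinates are those of the sacCer1 build. No gene annotation or sequence of that build was used here, so the genes and the sequences at these positions are not given.

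In wildtype at 0 h the selected nucleosomes had between 130 and 2696 read centres within 50 bp, with a median of 152, and a median spread of 23.2 bp. Most lay near the lower limit. From 130 to under 150 read centres were found at 1308 of them, from 150 to under 200 at 1212, and 200 or more at 379, of which 25 had at least 500. The limits cut through continuous distributions. Just inside the count limit, 404 nucleosomes had 130 to 134 read centres with a median spread of 24.6 bp, and just outside it 477 nucleosomes of the same range of spread had 125 to 129 read centres, also with a median spread of 24.6 bp. At the sharp limit, 345 nucleosomes had a spread of 18 bp to under 19 bp, and a further 337 equally deep nucleosomes were left out with a spread of 17 bp to under 18 bp. At the broad limit, 17 lay inside and 11 outside by less than 1 bp. In all, 1799 nucleosomes with 130 or more read centres were too sharp for the rule and 49 were too broad. For comparison, 34309 nucleosomes had the same range of spread and 6 to under 130 read centres. They are called the less deep nucleosomes here.

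The selected nucleosomes were deep in every library, and less so in H3 shutoff at 3 h. The median count within 50 bp was 128 read centres in H3 shutoff replicate 1 at 0 h, with a range of 30 to 1957, and 132 in replicate 2, with a range of 45 to 2767. At 3 h it was 76 in replicate 1, with a range of 28 to 1799, and 81 in replicate 2, with a range of 27 to 1441. In wildtype at 3 h it was 154, with a range of 37 to 1849. Both H3 shutoff medians at 3 h lay below both at 0 h, and the interquartile ranges did not overlap between the times: the upper quartiles were 95 and 101 at 3 h, and the lower quartiles 102 and 115 at 0 h. At the less deep nucleosomes the medians were 50 and 55 at 0 h and 46 and 46 at 3 h in H3 shutoff, and 59 and 54 in wildtype.

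**Figure D1:**
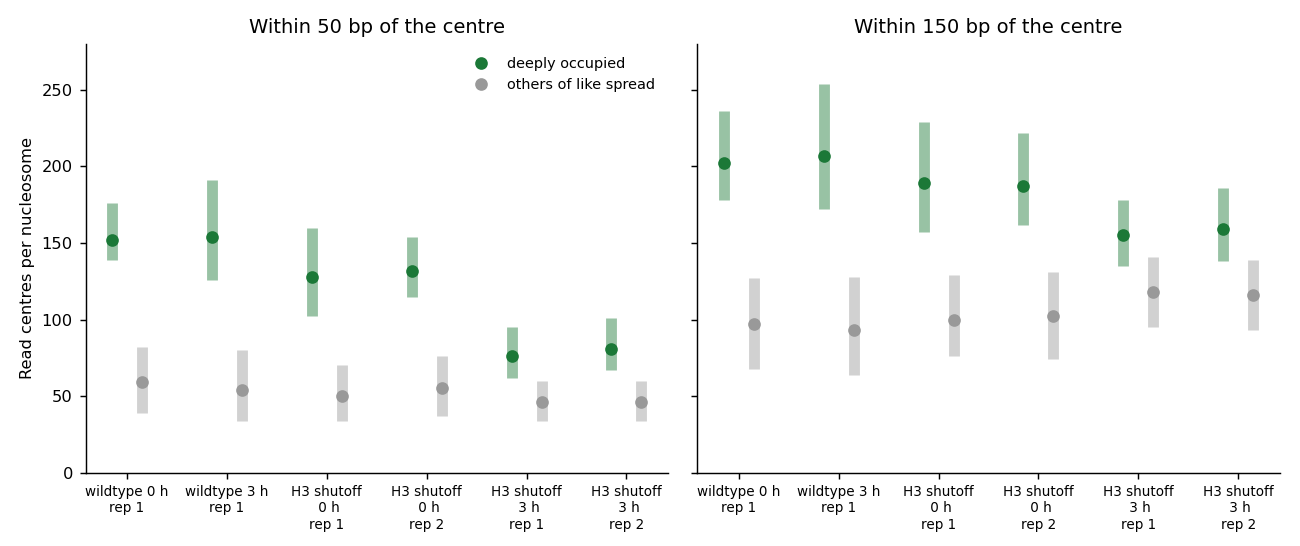
Read centres per nucleosome within 50 bp (left) and within 150 bp (right) of the wildtype 0 h centre, by library; points are medians and bars run from the lower to the upper quartile over 2899 deeply occupied nucleosomes (green) and 34309 less deep nucleosomes of like spread (grey). Within 50 bp the H3 shutoff medians are 128 and 132 before the shift and 76 and 81 after 3 h.

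As a share of all reads, the windows of 50 bp on each side of the selected centres held 8.30% of replicate 1 of H3 shutoff at 0 h (95% exact Clopper-Pearson interval 8.28 to 8.33%), and 5.24% (5.22 to 5.26%) was left there after 3 h. For replicate 2 the shares were 8.45% (8.43 to 8.48%) before and 5.53% (5.51 to 5.55%) after. In wildtype they held 9.87% at 0 h and 9.79% at 3 h. The summed count was thus lower by 36.9% and 34.6% in the H3 shutoff pairs. On the log2 scale the change was -0.66 in pair 1 and -0.61 in pair 2, a mean of -0.64 ± 0.037 (SD, n = 2 pairs), against -0.011 in the wildtype pair. The less deep nucleosomes went by -0.19 and -0.25, so the deep ones differed from them by -0.47 and -0.36, a mean difference of -0.42 ± 0.076 (SD, n = 2 pairs). Each of these changes is larger than the spread between pairs. With 2 pairs no p-value is given, since no exact test on 2 pairs can reach a p under 0.05. The size depends on the scale: with TMM-scaled totals, which centre the typical nucleosome, the change was -0.40, and with at most 3 reads per identical interval the excess over the less deep nucleosomes was -0.20.

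The direction was shared by most of the selected nucleosomes. The count was lower at 3 h at 2692 nucleosomes (92.9%) in pair 1 and at 2747 (94.8%) in pair 2, and at 2588 (89.3%) in both, while 46 were higher in both. Of all listed nucleosomes, 59.8% were lower in pair 1, 65.2% in pair 2 and 45.6% in both, and 18.9% were higher in both. Among the less deep nucleosomes, 43.6% were lower in both pairs. Both 3 h counts lay below both 0 h counts at 2505 of the selected nucleosomes (86.4%), where the background over all 51419 listed nucleosomes with more than 5 read centres was 39.3%. The reverse, both 3 h counts above both 0 h counts, was found at 36 (1.24%), where the background was 14.7%. A count at 3 h of no more than 50% of that at 0 h was found at 807 nucleosomes (27.8%) in pair 1, where the background was 11.9%. In pair 2 it was found at 653 (22.5%), where the background was 8.58%. In both pairs it was found at 256 (8.83%), against 2.40% of all listed and 1.35% of the less deep nucleosomes. Such a large difference was rare between replicates of one time: replicate 2 had 50% or less of replicate 1 at 8 of the selected nucleosomes at 0 h and at 5 at 3 h, and at least 2 times as many read centres at 18 and 11. In the wildtype pair the 3 h count was 50% or less of that at 0 h at 53 (1.83%), where the background was 5.29%. Across the 2899 nucleosomes the log2 changes of the H3 shutoff pairs correlated at r = 0.32, a description of these libraries with no p-value, since the pairs share the called centres and nucleosomes are not replicates.

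A test across replicates was made on the counts within 50 bp with edgeR's quasi-likelihood test, the replicate pair as a block and Benjamini-Hochberg adjustment over all 51325 nucleosomes tested. All 2899 deep nucleosomes passed the filter on low counts. At an adjusted p under 0.05, 298 of them (10.3%) were lower at 3 h, where the background was 2.17% of all nucleosomes tested, and 4 were higher, where the background was 2.42%. The 298 ranged from -1.71 to -0.89 in fitted log2 change, with a median of -1.03, and all of them were lower in both pairs. The fit takes the typical nucleosome as unchanged: the median log2 change over all nucleosomes tested was 0.019 and that of the deep ones was -0.48. With library totals in place of TMM the median over all was -0.22 and that of the deep ones -0.72. Of the deep ones 1135 were then lower and 3 higher, against 4625 and 602 of all 51325 tested. The block left 1 residual degree of freedom. Without it 110 deep nucleosomes were lower and 3 higher, against 388 and 396 of all 51325 tested, and the calls depended on single libraries. Without H3 shutoff 3 h replicate 1, in a fit with no block, 0 deep nucleosomes passed in edgeR (691 were lower and 20 higher at an unadjusted p under 0.05), 75 were lower without H3 shutoff 3 h replicate 2, and 620 without H3 shutoff 0 h replicate 2. With at most 3 reads per identical interval 52 deep nucleosomes were lower and 8 higher, against 201 and 635 of all 51164 tested. DESeq2 called 0 of the deep ones (402 lower and 14 higher at an unadjusted p under 0.05). It called 2 lower and 1 higher of all 51325 tested, so few passed anywhere in the list. Without H3 shutoff 3 h replicate 1 the median log2 change of the deep nucleosomes was -0.45, against -0.48 in the main fit.

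**Figure D2:**
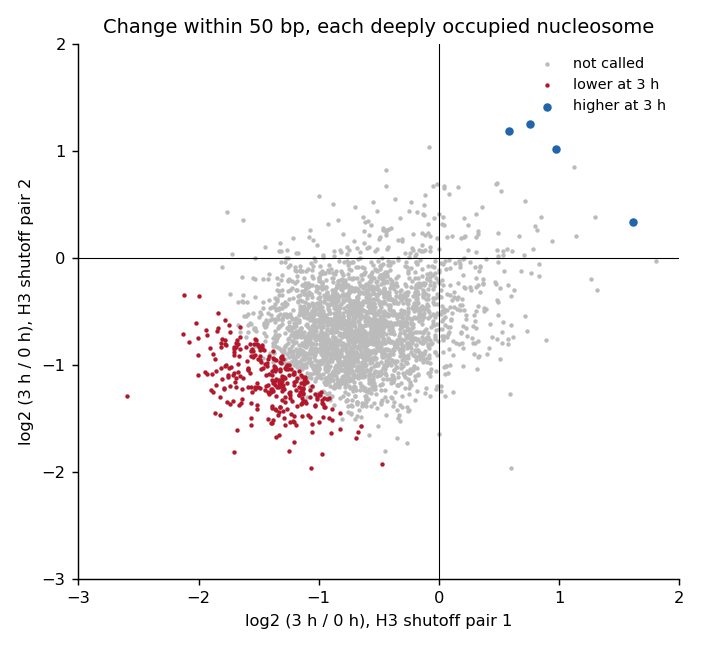
Log2 change from 0 h to 3 h of the count within 50 bp in H3 shutoff pair 1 (horizontal) and pair 2 (vertical), on the scale of library totals with 1 read added to each count; each point is 1 of the 2899 deeply occupied nucleosomes. Red marks the 298 called lower by edgeR and blue the 4 called higher, and most of the cloud lies below 0 in both pairs.

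A binomial test of the reads of a pair with Bonferroni correction (corrected p under 0.01), as the study used, compares the libraries of that pair and not the conditions. The study used the centre of the 0 h call at 0 h and that of the 3 h call at 3 h, whereas both times were counted here around the wildtype 0 h centre, so a shifted nucleosome can also lose counts. Of the deep nucleosomes, 729 (25.1%) were preferentially reduced in pair 1, where the background was 4.95%, and 541 (18.7%) in pair 2, where the background was 3.13%. In both pairs 204 (7.04%) were reduced, where the background was 1.21%. They made up 33.1% of the 616 nucleosomes of the whole list reduced in both. Preferentially retained nucleosomes were few: 20 (0.69%) in pair 1, where the background was 0.508%, 10 (0.345%) in pair 2, where it was 0.24%, and 3 (0.103%) in both, where it was 0.0196%. Of the less deep nucleosomes, 30 (0.0883%) were reduced in both pairs. Most of the 616 thus belong to neither set. The 1799 nucleosomes that were deep but too sharp for the rule were not counted apart, so the loss is not shown to be particular to the selected ones. The power of the binomial test rises with the count, and the part of depth in these shares was not tested. With TMM-scaled totals, 42 deep nucleosomes were reduced and 11 retained in both pairs. In the window of 150 bp 19 were reduced, and with at most 3 reads per identical interval the binomial test called 0 reduced and 0 retained in both. No background over the whole list is given for these alternatives. Their counts therefore do not show whether the deep nucleosomes stood out from the list.

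On the scale of library totals, the relative count was lower in a wider window too, by less. Within 150 bp of the centre the median count went from 189 to 155 in H3 shutoff pair 1, from 187 to 159 in pair 2 and from 202 to 207 in wildtype. The log2 change of the summed count was -0.23 and -0.20, a mean of -0.22 ± 0.026 (SD, n = 2 pairs), against 0.013 in wildtype. The wildtype value is a description, since its 0 h library chose the nucleosomes. At the less deep nucleosomes the same window gained reads, with log2 changes of 0.17 in both pairs. The count within 150 bp was lower in both pairs at 1794 deep nucleosomes (61.9%) and at 13.5% of the less deep ones. A count that was lower within 50 bp but higher within 150 bp in both pairs was found at 107 deep nucleosomes (3.69%) and at 11.8% of the less deep ones. In a window of 500 bp on each side, which takes in the nearest neighbours and was chosen after seeing the data, the changes of the deep nucleosomes were -0.25 and -0.20, and those of the less deep ones 0.029 in both. With at most 3 reads per identical interval the change within 150 bp was -0.084. For edgeR the TMM factors were computed for each window apart, so each fit took the typical nucleosome of its own window as unchanged. The median change over all nucleosomes tested was 0.019 within 50 bp and -0.012 within 150 bp. That of the deep nucleosomes was -0.48 within 50 bp and -0.40 within 150 bp. These values lie on separate scales and do not show how the windows differed. In the 150 bp window edgeR called 245 of them lower and 0 higher, and 754 lower and 412 higher among all 52079 nucleosomes tested.

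The share of the read centres within 150 bp that lay within 50 bp describes how concentrated a nucleosome is. At the deep nucleosomes it went from 68.1% to 50.6% in pair 1 and from 69.2% to 52.0% in pair 2, a change of -17.4 ± 0.19 percentage points (SD, n = 2 pairs). In wildtype it was 75.4% at 0 h and 74.1% at 3 h. The less deep nucleosomes, which were less concentrated from the start, went from 52.4% to 40.7% and from 55.3% to 41.5%. At 3 h the deep nucleosomes of H3 shutoff were thus about as concentrated as the less deep ones had been at 0 h.

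The spread of a nucleosome over 75 bp on each side, taken in the same window in all libraries, gave the same picture. Over the deep nucleosomes its median went from 26.3 to 35.3 bp for replicate 1 and from 25.2 to 34.6 bp for replicate 2, a change of 9.17 ± 0.25 bp (SD, n = 2 pairs). In wildtype it was 21.8 bp and 21.9 bp. The spread was wider in both pairs at 2633 deep nucleosomes (90.8%) and at 71.1% of the less deep ones, whose medians went from 32.4 to 37.9 bp and from 30.8 to 37.8 bp. A single position did not carry the counts at most sites: the centre position with most reads held a median of 11.2% and 10.7% of a deep nucleosome's read centres at 0 h and 9.59% and 8.82% at 3 h. More than 25% on 1 centre position was found at 122 and 98 deep nucleosomes at 0 h, and at 83 and 72 at 3 h.

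The average profile around the deep centres had a lower peak and a higher floor in H3 shutoff at 3 h. The smoothed density at the centre went from 2.77 to 1.30 read centres per bp and nucleosome in H3 shutoff replicate 1, from 2.78 to 1.47 for replicate 2, and from 3.45 to 3.41 in wildtype. In the trough beside it the density went up, from 0.256 to 0.405 and from 0.230 to 0.404, with 0.163 and 0.178 in wildtype. The ratio of peak to trough accordingly went from 10.8 to 3.20 and from 12.1 to 3.63 in H3 shutoff and from 21.2 to 19.2 in wildtype. The neighbouring peak stayed at the same distance, 176 bp from the centre at 0 h and 175 bp at 3 h in both replicates, while its density went from 1.22 to 0.617 and from 1.22 to 0.699. Deep nucleosomes of H3 shutoff at 3 h therefore kept a peak at the wildtype centre, which was lower than at 0 h, over a higher floor.

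**Figure D3:**
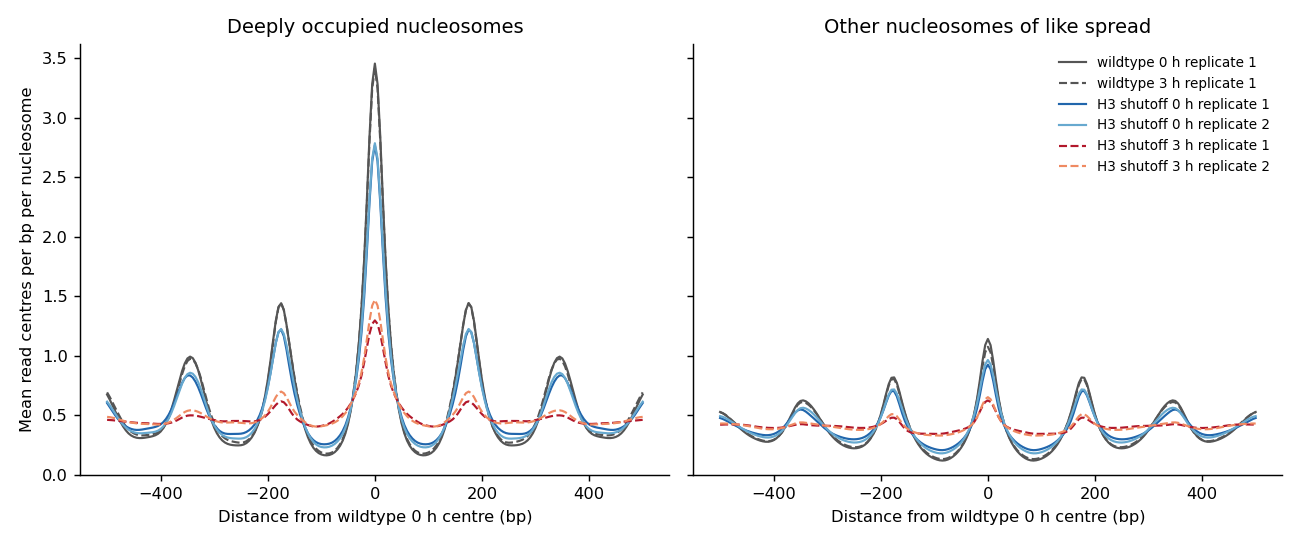
Mean read-centre density per bp per nucleosome, Gaussian smoothed (s.d. 10 bp), against the distance from the wildtype 0 h centre in bp, for 2899 deeply occupied nucleosomes (left) and 34309 less deep nucleosomes of like spread (right), with 1 line per library. At the deep centres the H3 shutoff peak is 2.77 and 2.78 before the shift and 1.30 and 1.47 after, and the neighbouring peaks near 176 bp are lower too.

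By distance from the centre, the log2 change of the density at deep nucleosomes was -0.96 and -0.86 within 20 bp and -0.37 and -0.37 from 20 to 40 bp. It turned positive further out, at 0.27 and 0.30 from 40 to 60 bp and 0.73 and 0.87 from 80 to 100 bp, and was -0.97 and -0.82 from 160 to 180 bp, where the neighbours lie. The gain in the linker was close to that at the less deep nucleosomes, 0.75 and 0.90 from 80 to 100 bp, whereas the loss within 20 bp was larger than theirs, -0.47 and -0.52. In wildtype the density went by -0.021 within 20 bp and by 0.12 from 80 to 100 bp.

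**Figure D4:**
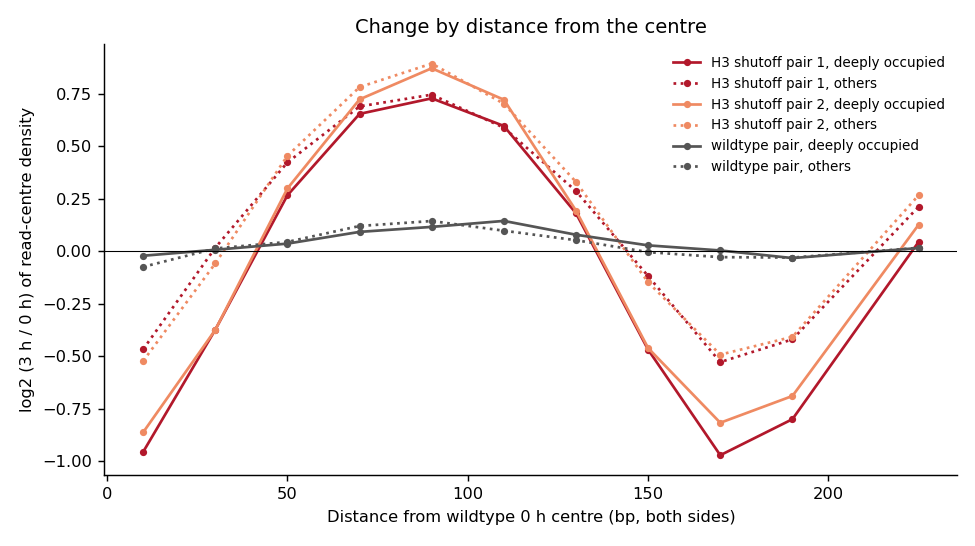
Log2 change from 0 h to 3 h of the read-centre density, against the distance from the wildtype 0 h centre in bp with both sides added, for each H3 shutoff pair and the wildtype pair; solid lines are deeply occupied nucleosomes and dotted lines the less deep ones. In H3 shutoff the deep nucleosomes go down by 0.96 and 0.86 within 20 bp and up by 0.73 and 0.87 from 80 to 100 bp.

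Shifts of the centres were small beside the width of a nucleosome but had larger medians than between replicates. The mean position of the read centres within 75 bp differed between 0 h and 3 h by a median of 5.93 bp in pair 1 and 5.13 bp in pair 2, against 3.25 bp in wildtype, 2.85 bp between both H3 shutoff libraries of 0 h and 4.17 bp between those of 3 h. A difference over 10 bp was found at 25.5% of the deep nucleosomes in pair 1 and 19.8% in pair 2, against 7.76% in wildtype, 3.07% between the replicates of 0 h and 12.2% between those of 3 h. It was found in both pairs at 254 (8.76%), and 241 of these moved the same way in both. At the less deep nucleosomes 13.9% moved by over 10 bp in both pairs.

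The authors' own calls in each library describe whether the site was still found as a nucleosome. A called centre with more than 5 read centres lay within 20 bp of the wildtype 0 h centre for 90.3% and 93.6% of the deep nucleosomes in H3 shutoff at 0 h, for 62.1% and 69.9% at 3 h, and for 89.4% in wildtype at 3 h. The change in H3 shutoff was -26.0 ± 3.15 percentage points (SD, n = 2 pairs). The less deep nucleosomes lost calls as well. Their share with a call within 20 bp went from 69.2% to 43.2% in pair 1 and from 77.3% to 47.1% in pair 2. The fall was thus not particular to the deep nucleosomes. When centres up to 40 bp away were accepted, the change at the deep nucleosomes was -15.9 percentage points. Few sites kept both the depth and the sharpness of the rule: a call within 20 bp that met it was found for 1249 (43.1%) and 1396 (48.2%) of the nucleosomes in H3 shutoff at 0 h, for 175 (6.04%) and 209 (7.21%) at 3 h, and for 1578 (54.4%) in wildtype at 3 h. Anywhere in the genome, the rule was met by 3091 and 2548 nucleosomes of the H3 shutoff lists before the shift, by 532 and 606 after it, and by 3386 of wildtype at 3 h. Within a library the deep nucleosomes stayed high in rank, though lower at 3 h in H3 shutoff. Their median percentile among the listed nucleosomes went from 93.3 to 87.7 in pair 1 and from 94.3 to 89.8 in pair 2, and 44.0% and 49.1% of them were still among the highest 10% at 3 h.

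The change was not largest at the deepest nucleosomes. Across all listed nucleosomes of the same range of spread, the log2 change in H3 shutoff was 0.077 and 0.36 where wildtype at 0 h had 6 to under 30 read centres, -0.26 and -0.36 at 60 to under 100, and -0.51 and -0.54 at 100 to under 130, just below the limit. Inside the limit it was -0.66 and -0.62 at 130 to under 150 read centres and -0.76 and -0.67 at 150 to under 200, the lowest of the 8 bins in both pairs. It was nearer to 0 again at 200 to under 500, with -0.59 and -0.54, and at 500 or more, with -0.28 and -0.36. The deepest bin holds 25 nucleosomes, of which 8 lie within 20 kb of a chromosome end, and edgeR called 0 of them (12.6% were called lower at 150 to under 200 read centres). In the wildtype pair the change lay between -0.015 and 0.0096 over the bins from 130 to under 500 and was -0.12 at 500 or more.

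Sharp deep nucleosomes went down more than broad ones. The 1945 with a wildtype spread of 18 to under 26 bp changed by -0.79 and -0.71, the 701 of 26 to under 34 bp by -0.53 and -0.51, and the 253 of 34 to under 42 bp by -0.27 and -0.27. Over all depths together the order was the same within 150 bp, with -0.30 and -0.23 at the sharp ones, -0.16 and -0.17 between, and -0.099 and -0.13 at the broad ones. At 130 to under 150 read centres this order was absent within 150 bp, with -0.21 and -0.17 at the sharp ones and -0.23 and -0.18 at the broad ones. Within 50 bp it held at each depth: at 130 to under 150 read centres the sharp ones were at -0.72 and -0.70 and the broad ones at -0.39 and -0.29, and at 200 or more they were at -0.83 and -0.71 and at -0.012 and -0.11, the latter over 33 nucleosomes. The sharp nucleosomes with 200 or more read centres were thus as low as those with 150 to under 200, at -0.82 and -0.72, and the values nearer to 0 at high depth were those of the broader ones. The less deep nucleosomes followed the same order at smaller sizes, from -0.37 and -0.43 to -0.018 and -0.075.

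**Figure D5:**
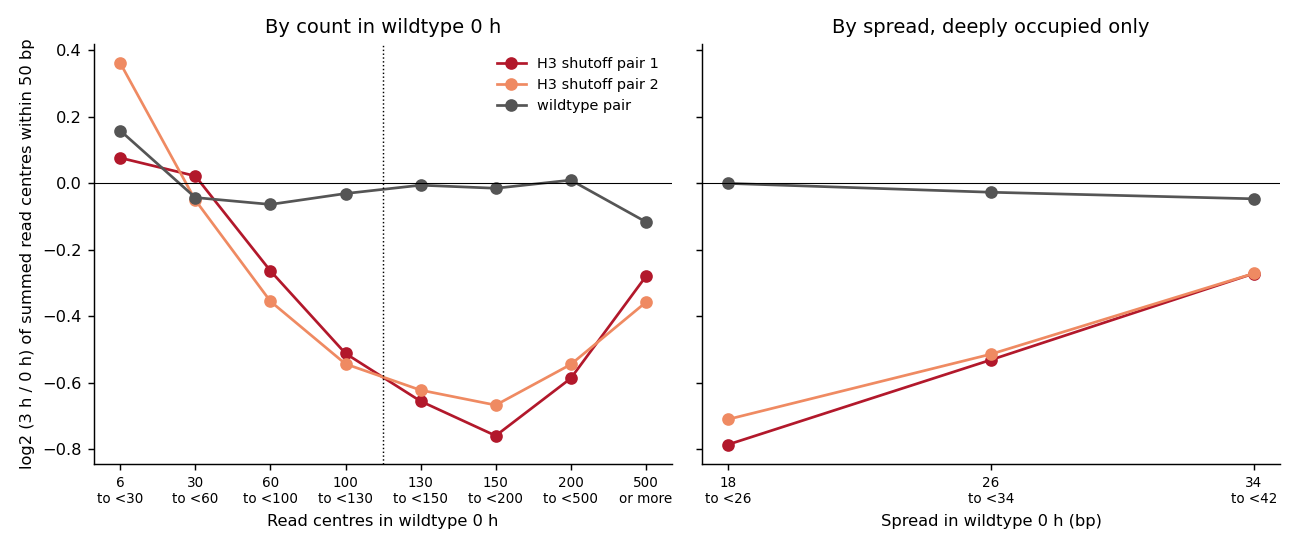
Log2 change from 0 h to 3 h of the summed read centres within 50 bp, for H3 shutoff pairs 1 and 2 and the wildtype pair: by the read count in wildtype at 0 h over the listed nucleosomes of the same range of spread (left, with the limit of 130 as a dotted line) and by the spread in wildtype at 0 h over the deeply occupied ones (right). The H3 shutoff pairs are lowest at 150 to under 200 read centres, -0.76 and -0.67, and nearer to 0 at broad nucleosomes, -0.27 in both.

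Deep nucleosomes were found on all 16 chromosomes, between 4.65% of the listed nucleosomes on chromosome 11 and 7.84% on chromosome 1. They often stood side by side: 941 (32.5%) had a deep nucleosome as a direct neighbour, against 9.99% of the less deep ones. They formed 1958 single nucleosomes, 322 runs of 2, 63 of 3 and 16 of 4, and the longest run held 8. A gap of 250 bp or more to a neighbouring centre was found at 52.6% of them and at 61.5% of the less deep ones. Their 4447 direct neighbours that were not deep enough for the rule, or outside its spread, changed by -0.56 and -0.49, and the rest of the list by -0.19 and -0.25.

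Chromosome ends differed from the rest more in pair 1 than in pair 2. Within 20 kb of an end lay 259 deep nucleosomes (8.93%), where 5.08% of the list lies. They changed by -0.36 in pair 1 and -0.54 in pair 2, and the 2640 others by -0.70 and -0.62, so that the ends were less reduced in both pairs but by unequal amounts. In the wildtype pair the ends changed by -0.090 and the others by -0.0021. Within 150 bp the ends changed by 0.031 in pair 1 and -0.145 in pair 2. By edgeR 8.49% of the ends were called lower and 10.5% of the others. The change of the less deep nucleosomes near ends is not given. All 4 deep nucleosomes called higher by edgeR lie within 20 kb of an end, a feature noticed after their values were seen, along with 22 of the 298 called lower. The ends of yeast chromosomes carry repeats that several chromosomes share, and counts there are uncertain where a read could be placed on more than 1 copy. Without them the change of all deep nucleosomes within 50 bp was -0.66.

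Single sites show these patterns in the counts themselves. The deepest was centred at position 490325 of chromosome 12, the chromosome that also carries the ribosomal DNA, with 2696 read centres in wildtype at 0 h and 1849 at 3 h. In H3 shutoff it had 1957 read centres at 0 h and 1799 at 3 h in replicate 1, and 2767 and 1441 in replicate 2, so the log2 change averaged -0.53 ± 0.58 (SD, n = 2 pairs), less than the spread between the pairs, with an edgeR adjusted p of 0.866. The next, on chromosome 13 at 376000, had 1248 and 1040 read centres in replicate 1 and 1378 and 1299 in replicate 2, with 1495 and 1426 in wildtype. Its 0 h and 3 h counts overlapped, since 1299 at 3 h lies above 1248 at 0 h. The third, on chromosome 16 at 805327, had 1068 and 645 in replicate 1 and 809 and 706 in replicate 2, while wildtype had 1045 and 1320. Neither was called (edgeR adjusted p = 0.97 and 0.852).

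The largest losses were at nucleosomes of ordinary depth in this set. On chromosome 12 at 665034 the H3 shutoff counts went from 217 to 35 (replicate 1) and from 146 to 59 (replicate 2), while wildtype had 161 at both times. Its fitted log2 change was -1.71 (edgeR adjusted p = 0.000146), and its spread went from 17.9 to 31.8 bp and from 20.4 to 36.1 bp. The counts within 150 bp were lower too, at 305 and 123 in replicate 1 and 183 and 146 in replicate 2. On chromosome 2 at 596479 the counts went from 126 to 38 and from 175 to 49, with 171 and 118 in wildtype (log2 change -1.55, edgeR adjusted p = 0.000429). On chromosome 13 at 631640 they went from 112 to 30 and from 136 to 49, with 163 and 140 in wildtype (log2 change -1.43, edgeR adjusted p = 0.00138). In these 3 the 0 h and 3 h counts of H3 shutoff are far apart in both replicates.

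The fourth, on chromosome 7 at 1076775 and 14169 bp from the chromosome end, had a different balance between the windows. Its count within 50 bp went from 162 to 45 and from 160 to 57 (log2 change -1.43, edgeR adjusted p = 0.00134), with 179 and 146 in wildtype. Within 150 bp it had 205 and 167 read centres in replicate 1 and 187 and 194 in replicate 2. The wider window thus kept most of its reads, and the spread went from 23.9 to 41.0 bp and from 23.2 to 46.5 bp.

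The 4 nucleosomes called higher were all higher in both replicates. On chromosome 6 at 763, in the first kilobase of the chromosome, counts went from 153 to 259 (replicate 1) and from 123 to 294 (replicate 2), with 145 and 133 in wildtype (log2 change 1.24, edgeR adjusted p = 0.0192). On chromosome 12 at 1072394 they went from 194 to 382 and from 201 to 408, with 168 and 147 in wildtype (1.23, edgeR adjusted p = 0.0364). At this site the spread went the other way from most, from 35.6 to 21.9 bp and from 33.2 to 23.2 bp. On chromosome 15 at 1090436 counts went from 134 to 412 in replicate 1 but only from 207 to 261 in replicate 2, with 199 and 136 in wildtype (1.21, edgeR adjusted p = 0.0346), so the sizes of the changes in the replicates were far apart. On chromosome 12 at 4326 they went from 173 to 259 and from 118 to 269, with 139 and 145 in wildtype (1.12, edgeR adjusted p = 0.0364), and the spread went from 21.0 to 17.5 bp and from 25.0 to 17.0 bp.

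A few deep sites had like counts at both times. On chromosome 14 at 565772 the counts were 139 and 136 in replicate 1 and 143 and 140 in replicate 2, with 137 and 128 in wildtype. On chromosome 14 at 520807 they were 86 and 87 in replicate 1 and 125 and 121 in replicate 2, with 148 and 115 in wildtype. On chromosome 4 at 990651 they were 379 and 393 in replicate 1 and 380 and 372 in replicate 2, with 467 and 432 in wildtype. These 3 were picked because their counts changed least, so their stability is a description. Their spread also moved little: at the site on chromosome 4 it was 22.3 and 25.9 bp in replicate 1 and 26.0 and 26.2 bp in replicate 2.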

How the data were processed

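Single-end MNase-seq libraries of crosslinked cells were analysed. The authors aligned the reads to sacCer1 with Bowtie 0.12.6 at default settings, lengthened each to the mean fragment of its library, left out the ribosomal DNA (chromosome 12, 450000 to 472500) and drew an equal number of reads at random. The deposited intervals hold 1 read per line, without strand, and the deposited lists of called nucleosomes give raw counts of read centres around each called centre, as the authors made them. Other deposited columns, in bp or without a stated unit, are positions, spreads and a score per nucleosome that was not used here.

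Read centres (interval midpoint, rounded down) were counted within 50 and 150 bp of each wildtype 0 h centre, so that a read may count for more than 1 nucleosome in the wider window. Spread and mean position were taken within 75 bp. Groups came from the sample titles. edgeR 4.0.16 (glmQLFit, glmQLFTest, TMM) and, as an alternative, DESeq2 1.42.0 were run in R 4.3.3 on nucleosomes whose mean count over the 4 libraries was 10 or more. The binomial classes, for nucleosomes above 5 read centres in both libraries of a pair, and all other values were computed in Python 3.11.15 with scipy 1.17.1. Log2 changes per pair of single nucleosomes used a pseudocount of 1 read and library totals, whereas edgeR changes are on the TMM scale.

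The fit was blocked by replicate pair, since the study's methods took both times from 1 culture. To check the pairing, deviations from the group means correlated between 0 h and 3 h at r = -0.089 over all nucleosomes tested and at -0.15 over the deep ones, which gives the block no backing from the counts; it rests on the design. Replicates differed by more than counting error (chi-square over its degrees of freedom 4.69 at 0 h and 2.64 at 3 h over the deep nucleosomes), and each was counted as 1 sample.

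Named nucleosomes are the 3 deepest in wildtype at 0 h, the 4 lowest and 4 highest edgeR changes among those called and moving alike in both pairs, and the 3 whose larger change of the 2 pairs was smallest. The limits that define the deep nucleosomes, the comparisons and the named-site rule were chosen with earlier results of these data known. Alternatives were other scalings, windows, filters, a cap on repeated intervals, a count limit of 150, other distances for calls, and leaving out libraries.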

Additional observations from a re-analysis of the deposited data

Results flagged for a closer look

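The summed count of the deep nucleosomes within 150 bp of the centre had a log2 change of -0.22 on average in H3 shutoff, with both pairs below 0, and of 0.013, close to no change, in the single wildtype pair. Both values are on the scale of library totals. The result was picked out because the signs differ. This difference was not tested, since wildtype has 1 pair and its 0 h library chose the nucleosomes.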

How the results depend on the processing

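Under the alternatives run, no log2 change, share or spread of the deep nucleosomes as a set turned its sign. TMM-scaled totals were applied to the summed count within 50 bp and not to that within 150 bp. The sign of the change within 150 bp on that scale was therefore not tested. Some uncalled named sites did. Chromosome 14 at 565772 had a mean log2 change of -0.031 within 50 bp and 0.027 within 150 bp, and 0.20 on edgeR's TMM scale. On that scale chromosome 13 at 376000 had 0.061 and chromosome 14 at 520807 had 0.22, against -0.17 and -0.015 with library totals. Counts of calls moved, in some cases to 0 in both directions. The cause was not tested. Deep nucleosomes called lower by edgeR (298) numbered 110 with no replicate block, 1135 with library totals and 52 with at most 3 reads per identical interval. A limit of 150 read centres kept 1591 of the deep nucleosomes, and 193 of these were called lower. DESeq2 called 0 deep nucleosomes lower, and 2 of all 51325 tested. Leaving out 1 library in turn, with no block, gave 0 to 620 (75 without H3 shutoff 3 h replicate 2). Of those called higher (4), there were 0 with DESeq2 and 0 in the window of 150 bp (5 at an unadjusted p under 0.05 in edgeR), 8 with the cap on identical intervals, 2 among nucleosomes of at least 150 read centres, and 0 to 16 with 1 library left out.

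Nucleosomes reduced in both pairs (204) numbered 42 with TMM-scaled totals, 19 in the window of 150 bp and 0 in the binomial test with the cap, and 541 to 729 with 1 pair left out. Those retained in both (3) numbered 11 with TMM-scaled totals, 0 with the cap and 10 to 20 with 1 pair left out.

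With the cap, the log2 change was -0.44 within 50 bp and -0.084 within 150 bp, the difference from the less deep nucleosomes -0.20, the change in the share within 50 bp -13.3 percentage points and in spread 6.78 bp. TMM-scaled totals gave -0.40 within 50 bp. A window of 60 bp gave 6.18 bp of spread, and nucleosomes of at least 150 read centres gave -17.1 percentage points for the share. The change in nucleosomes called again was -33.2 percentage points within 10 bp and -15.9 within 40 bp. Of the 14 named sites, 2 moved with a pseudocount of 5 reads and 8 in the window of 150 bp, by more than the SD between pairs. Only 2 pairs, 1 residual degree of freedom and relative counts limit every comparison.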
